A study of Homo sapiens with 17 samples.

Results

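Keratins are the intermediate filament proteins of epithelial cells, and 7 keratin genes of 19867 genes in the table are described here: KRT80 (ENSG00000167767), KRT8 (ENSG00000170421), KRT18 (ENSG00000111057), KRT19 (ENSG00000171345), KRT7 (ENSG00000135480), KRT17 (ENSG00000128422) and KRT23 (ENSG00000108244). The set was chosen by its first member: KRT80 was selected on its lower counts at both intetumumab doses against the isotype, and the other 6 were added as members of the same family. KRT80's values in those comparisons, and those of the other members there, are therefore a description with no test. The VT107 comparisons were not used in the choice. The 2 intetumumab doses were not set against each other in it, but the libraries of both were used. The test of KRT80 between these doses is therefore not independent of the choice. KRT80, KRT8 and KRT18 carried 8393 of the 8456 keratin counts of the labelled libraries (99.3%), and only these 3 had enough counts to be tested.

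The cells were SNU-761, a cell line from a human liver carcinoma whose genotype is given as WT, and the counts come from SLAM-seq, which reads out new RNA. In this assay thiouridine enters new RNA, iodoacetamide modifies it so that reads carry T-to-C changes there, and the 3′-end reads with such changes are counted per gene. In the VT107 experiment, 2 libraries each came from cells given VT107 at 2.15 µM, VT107 at 0.1 µM or the matching amount of DMSO. VT107, a small molecule, inhibits the whole TEAD family, the transcription factors through which the coactivators YAP and TAZ reach DNA. In the intetumumab experiment, 3 libraries each came from cells given intetumumab at either 5 or 1.5 µg/ml, or an isotype control antibody (human IgG1, kappa, at 5 µg/ml). Intetumumab, used as a biosimilar, binds the integrin αv chain (ITGAV), part of several matrix receptors. All treated and control cells were collected at 4 h, and each experiment had 1 further library of untreated cells that was not labelled with thiouridine. The 15 labelled libraries held 435343 to 1778876 counts each. Whether replicates were separate cultures is not stated, and the p-values below may thus rest on technical spread alone. A lower count in a bulk library can come from fewer cells making a transcript or from less new RNA per cell, and these cannot be told apart. All results are from 1 cell line. Where DMSO and isotype levels are set side by side, vehicle and experiment cannot be told apart.

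A keratin filament is built from pairs of a type I and a type II chain. KRT8 (type II) and KRT18 (type I) form the pair of simple epithelia and are the main keratins of hepatocytes. KRT19 (type I) and KRT7 (type II) are keratins of bile duct and other ductal epithelia, KRT17 (type I) is a keratin of skin appendages and of stressed or wounded epithelium, KRT23 is a further type I chain, and KRT80 is a type II chain found in many epithelia. In the RefSeq annotation of GRCh38.p14, KRT80 (chromosome 12, 52168996 to 52192014), KRT7 (52233243 to 52255853), KRT8 (52897191 to 52949860) and KRT18 (52948855 to 52952906) lie in the keratin cluster of chromosome 12. KRT23 (40922700 to 40937646), KRT19 (41523617 to 41528308) and KRT17 (41619442 to 41624575) lie on chromosome 17. The annotated spans of KRT8 and KRT18 share 1006 bases. The annotation also lists 52 pseudogenes named after KRT8, 68 named after KRT18, 5 after KRT19 and 8 after KRT17, against 0 for KRT80, KRT7 and KRT23. How reads that fit several places were counted is not given in the sources used here, and its effect on the counts was not tested.

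Of the 7 genes, 1 had an entry in the RefSeq promoter table used here. It is shown because VT107 acts on TEAD factors, whose core motif is GGAATG. The sequence runs from 250 bases before to 30 bases after the transcript start listed for KRT8, chr12:52926440-52926719 (GRCh38.p14, minus strand), 5′ to 3′, with the motif in capitals.

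KRT8: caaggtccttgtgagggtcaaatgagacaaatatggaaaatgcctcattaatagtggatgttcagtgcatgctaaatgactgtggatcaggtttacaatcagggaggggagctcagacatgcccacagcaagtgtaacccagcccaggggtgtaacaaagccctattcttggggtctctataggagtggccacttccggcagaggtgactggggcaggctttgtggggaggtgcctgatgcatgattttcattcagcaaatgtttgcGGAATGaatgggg

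Both strands were searched for GGAATG, for the AP-1 motif TGANTCA and for the TATA box TATAAA. The window held 1 match, GGAATG on the gene's strand, 18 to 23 bases after the start. Windows of the same length held this motif in 13.3% of 35116 listed promoters, TGANTCA in 7.35% and TATAAA in 11.2%. The start lies inside the annotated span of KRT8, which has several transcripts. The counts come from 3′ ends and do not show which start was used.

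Levels are given as counts per 1000000 after TMM scaling within each experiment (CPM), a scaling that assumes that most genes of an experiment keep their level. KRT80 was lower in every VT107 library than in both DMSO libraries. It stood at 207 and 221 CPM with VT107 at 2.15 µM, at 139 and 138 CPM at 0.1 µM, and at 339 and 334 CPM in DMSO. The lower dose had the lower values, and the 3 groups did not overlap. At 0.1 µM KRT80 was 2.43-fold below DMSO (139 ± 0.570 against 337 ± 3.35 CPM, SD, n = 2 each, log2 fold change -1.28, SE 0.22). This did not pass edgeR's quasi-likelihood test after Benjamini-Hochberg adjustment over 10083 genes (adjusted p = 0.120, unadjusted p = 0.000335), and KRT80 ranked 26 of 10083 genes by p. At 2.15 µM it was 1.58-fold below DMSO (214 ± 9.81 CPM, n = 2, log2 fold change -0.66, SE 0.21, edgeR adjusted p = 0.300). Both doses were compared with the same 2 DMSO libraries. The KRT80 counts at 0.1 µM were 118 and 110. Here and below, an SD from 2 libraries can lie below the counting error and is a poor measure of spread.

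The call for KRT80 at 0.1 µM depended on the method. It passed in 3 of 13 alternatives, with adjusted p of 0.000182 by DESeq2, 0.0122 in edgeR without the filter on low counts and 0.00416 in an edgeR fit of all 15 labelled libraries, and over all 13 the adjusted p ran up to 0.285. The log2 fold change stayed between -1.30 and -1.17. All counts of KRT80 were even numbers (110 to 382 in the VT107 experiment and 70 to 314 in the intetumumab experiment). A common divisor over the labelled libraries was found in 14.9% of the 9757 genes examined. With counts divided by their divisor, the log2 fold change at 0.1 µM was -1.28 with an SE of 0.27 (edgeR adjusted p = 0.158). Division makes the counts of KRT80, and its ratios to KRT8 and KRT18, lower by a factor of 2 in every library. The fit divided every gene with a divisor, which changes the scaling, so CPM need not fall by exactly this factor. Comparisons of KRT80 between libraries nearly keep their ratio, while the level itself is uncertain by about that factor. Why counts share a divisor was not tested.

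KRT8, the type II partner, had 224 and 228 CPM with VT107 at 2.15 µM, 364 and 269 CPM at 0.1 µM, and 452 and 349 CPM in DMSO. Both libraries at 2.15 µM lay below the other 4, and the 0.1 µM libraries overlapped those in DMSO. KRT8 averaged 226 ± 2.47 CPM at 2.15 µM and 400.4 ± 72.8 CPM in DMSO (SD, n = 2 each). Its log2 fold change there was -0.83 (SE 0.24, edgeR adjusted p = 0.265). DESeq2 alone among the 13 alternatives called it (log2 fold change -0.84, adjusted p = 0.0364). At 0.1 µM the log2 fold change was -0.34 (SE 0.24, edgeR adjusted p = 0.634). This value moved with single libraries: it was -0.14 without DMSO replicate 1 and also without replicate 2 at 0.1 µM, -0.52 without DMSO replicate 2, and -0.58 without replicate 1 at 0.1 µM.

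KRT18, the type I partner, had 84.4 and 118 CPM at 2.15 µM, 167 and 178 CPM at 0.1 µM, and 238 and 152 CPM in DMSO. As for KRT8, both libraries at 2.15 µM lay below the other 4. The log2 fold change against DMSO was -0.95 at 2.15 µM (SE 0.31, edgeR adjusted p = 0.300) and -0.17 at 0.1 µM (SE 0.31, edgeR adjusted p = 0.879). The DMSO libraries differed widely for KRT18, and without DMSO replicate 1 the value at 2.15 µM was -0.59, while at 0.1 µM it was 0.19 in place of -0.17. Without DMSO replicate 2 the value at 0.1 µM was -0.47.

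At 2.15 µM of VT107, 0 of the 3 tested keratins were called by edgeR, against 0.109% of all 10083 genes tested (11 genes). All 3, and 1167 genes in all, had an unadjusted p under 0.05, and DESeq2 called 1 of 3 and 253 genes. All 3 lay below DMSO without overlap, as did 20.6% of all genes tested. At 0.1 µM, 0 of 3 were called by edgeR, which called 0% of all genes, while 1 of 3, and 1219 genes in all, had an unadjusted p under 0.05, and DESeq2 called 1 of 3 and 188 genes. Of the 3 tested keratins, KRT80 alone lay below DMSO without overlap there, as did 19.3% of all genes.

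**Figure D1:**
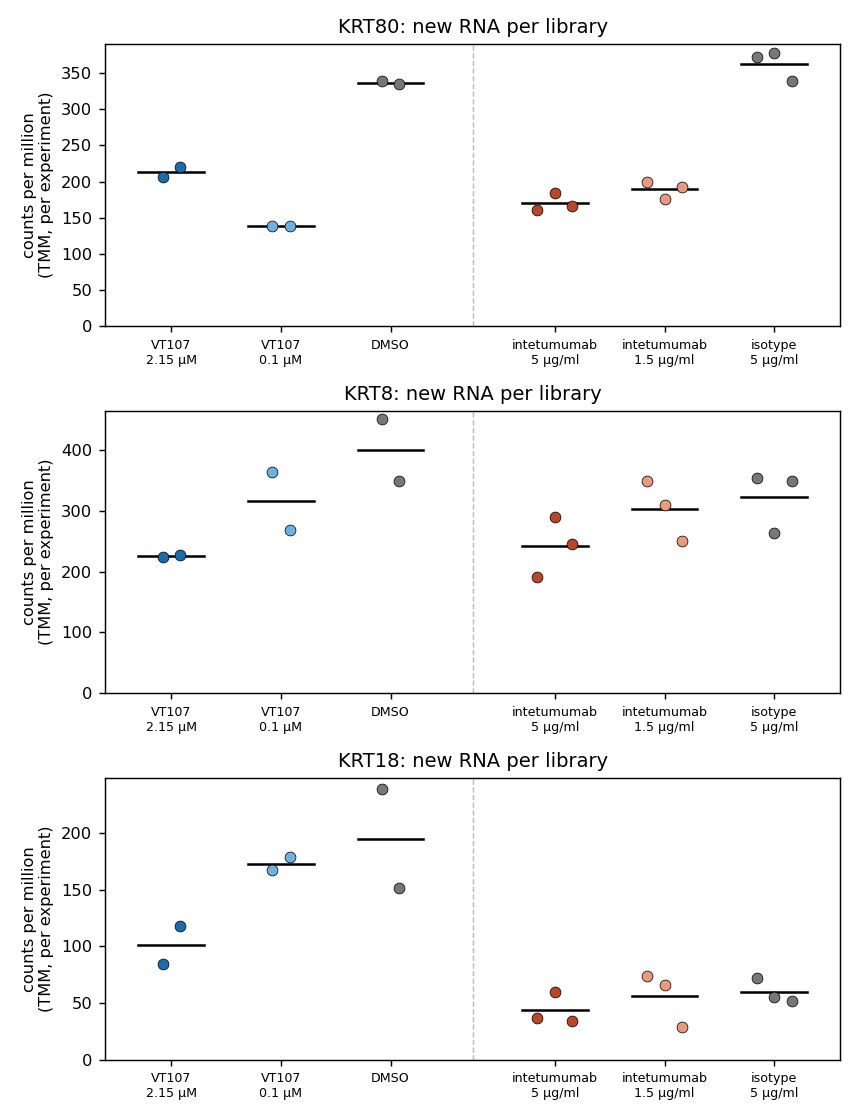
New RNA of KRT80, KRT8 and KRT18 in each labelled library, in CPM after TMM scaling within each experiment (vertical axes start at 0). Points are libraries, lines are group means (n = 2 per group left of the dashed line, n = 3 right of it), and KRT80 is lower in every treated library than in its controls, while KRT8 and KRT18 overlap their controls in all but the VT107 2.15 µM group.

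Set directly against each other, the VT107 doses placed KRT80 and the KRT8 and KRT18 pair on opposite sides, without a call. KRT80 was higher at 2.15 than at 0.1 µM (log2 fold change 0.62, SE 0.22, 95% interval 0.13 to 1.12, edgeR adjusted p = 0.905). KRT8 was lower at 2.15 than at 0.1 µM (-0.49, SE 0.24, 95% interval -1.04 to 0.07, edgeR adjusted p = 0.952), and so was KRT18 (-0.78, SE 0.31, 95% interval -1.49 to -0.06, edgeR adjusted p = 0.927). Without replicate 1 at 0.1 µM the value of KRT8 was -0.24. These intervals are not adjusted for the number of genes. edgeR called 0 of 3 keratins and 0% of all genes here, while 2 of 3, and 534 genes in all, had an unadjusted p under 0.05. DESeq2 called 7 genes. It did not call KRT8 (DESeq2 adjusted p = 0.451) and gave no adjusted p for KRT80 and KRT18. The groups did not overlap for KRT8 and KRT18, which were lower (19% of all genes), and for KRT80, which was higher (20.1%).

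With intetumumab, the comparison on which KRT80 was chosen, KRT80 had 161, 184 and 166 CPM at the higher dose (5 µg/ml), 199, 176 and 192 CPM at the lower (1.5 µg/ml), and 372, 378 and 339 CPM with the isotype. All 6 antibody libraries lay below all 3 isotype libraries, with at most 199 CPM in the antibody libraries and at least 339 CPM in the isotype libraries. KRT80 was 2.12-fold below the isotype at the higher dose (log2 fold change -1.09, SE 0.16). At the lower dose it was 1.92-fold below (-0.94, SE 0.16). Both doses share the isotype libraries. Leaving out any 1 library of the 2 groups compared kept the log2 fold change between -1.14 and -1.05 for the higher dose and between -0.99 and -0.89 for the lower.

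KRT8 and KRT18 overlapped their isotype values at both antibody doses. KRT8 had 191, 289 and 245 CPM at 5 µg/ml, 348, 309 and 251 CPM at 1.5 µg/ml, and 354, 264 and 349 CPM with the isotype. Its log2 fold change was -0.41 (SE 0.20) for the higher dose and -0.09 (SE 0.20) for the lower. Without replicate 3 of the lower dose, the second value was 0.03. KRT18 had 36.9, 59.5 and 34.6 CPM at 5 µg/ml, 74.0, 66.0 and 29.2 CPM at 1.5 µg/ml, and 72.4, 55.2 and 51.8 CPM with the isotype, with log2 fold changes of -0.44 (SE 0.36) for the higher dose and -0.05 (SE 0.35) for the lower. The first of these was -0.74 without replicate 2 of the higher dose, and -0.28 without its replicate 3 and also without isotype replicate 1. The second was 0.23 without replicate 3 of the lower dose and 0.10 without isotype replicate 1. The low values of KRT18 rest on few counts (16, 44 and 27 at 5 µg/ml, 55, 57 and 14 at 1.5 µg/ml, and 53, 40 and 48 with the isotype). Of the 3 keratins, 1 lay below the isotype without overlap at each dose, as did 8.26% of all 9024 genes for the higher dose and 6.72% for the lower.

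Between the 2 antibody doses the keratins overlapped. KRT80 was chosen for counts below the isotype at both doses, so its p-value here is not independent of the choice. KRT80 was at 171 ± 11.9 CPM with the higher dose and 189 ± 11.8 CPM with the lower (SD, n = 3 each). The log2 fold change was -0.14 (SE 0.16, edgeR adjusted p = 0.952). Its 95% interval, -0.49 to 0.21, leaves room for a modest difference in either direction. The log2 fold changes of KRT8 (-0.32, SE 0.20, edgeR adjusted p = 0.878) and KRT18 (-0.39, SE 0.36, edgeR adjusted p = 0.931) were not called either. Leaving out single libraries gave -0.47 to -0.19 for KRT8, lowest without replicate 2 and highest without replicate 1 of the higher dose. For KRT18 it gave -0.69 to -0.16, lowest without replicate 2 of the higher dose and highest without replicate 1 of the lower. edgeR called 0 of 3 keratins against 0.0111% of all genes (1 gene), while 0 of 3, and 509 genes in all, had an unadjusted p under 0.05. DESeq2 called 6 genes. It did not call KRT8 (DESeq2 adjusted p = 0.580) and gave no adjusted p for KRT80 and KRT18.

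**Figure D2:**
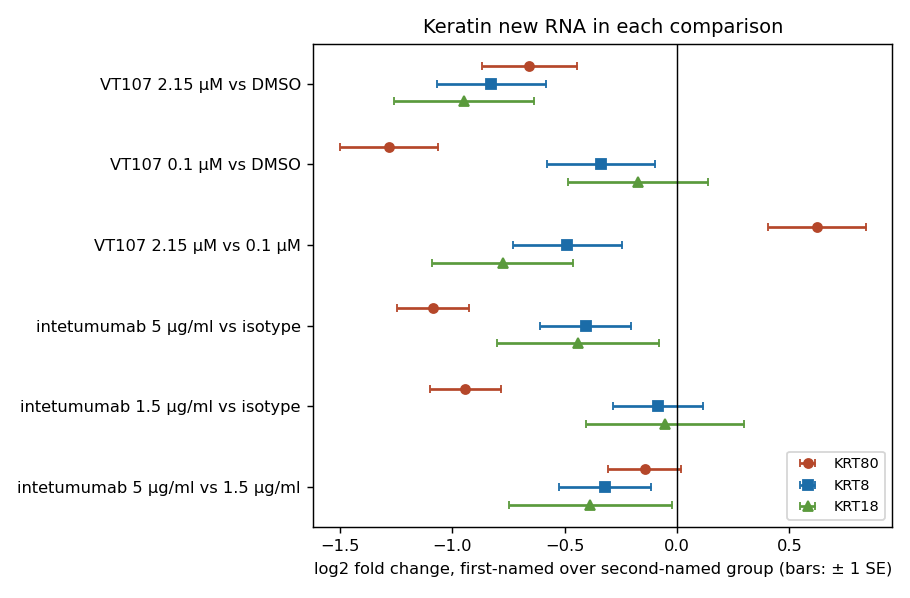
Log2 fold change of KRT80, KRT8 and KRT18 in 6 comparisons, the first-named group over the second-named, with bars of 1 SE from the edgeR fits. KRT80 lies at -1.28 for VT107 0.1 µM and at -1.09 and -0.94 for the higher and the lower intetumumab dose, and it is the only point above 0 in the comparison of the VT107 doses (0.62).

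A ratio of 2 genes within a library does not depend on how the library was scaled. Its level has no meaning of its own here, since genes differ in how readily they are labelled and counted, so it is compared only between libraries. The ratio of KRT80 to KRT8 counts was 0.923 and 0.969 with VT107 at 2.15 µM, 0.382 and 0.514 at 0.1 µM, and 0.751 and 0.958 in DMSO. Both libraries at 0.1 µM were thus below the 4 others, and those at 2.15 µM overlapped DMSO. With intetumumab the ratio was 0.843, 0.636 and 0.681 with the higher dose and 0.571, 0.569 and 0.767 with the lower, against 1.05, 1.43 and 0.972 with the isotype. All 6 antibody libraries lay below the 3 isotype libraries. The ratio of KRT80 to KRT18 was also lowest at the lower VT107 dose, with 2.45 and 1.87 at 2.15 µM, 0.831 and 0.775 at 0.1 µM, and 1.42 and 2.20 in DMSO. With intetumumab it was 4.38, 3.09 and 4.81 for the higher dose and 2.69, 2.67 and 6.57 for the lower, against 5.13, 6.85 and 6.54 with the isotype. For this ratio replicate 3 of the lower dose lay among the isotype libraries, while the other 5 antibody libraries lay below them. The ratios were not tested, since 2 libraries against 2 allow no exact two-sided permutation p below 0.333 and the intetumumab contrast was used in the choice.

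The ratio of KRT8 to KRT18 counts separated the experiments and not the treatments. It was 1.51 to 2.65 (median 2.05) in the 6 labelled libraries of the VT107 experiment and 4.68 to 8.57 (median 4.89) in the 9 of the intetumumab experiment. Within each experiment the treated and control libraries overlapped. When all 15 labelled libraries were scaled together, KRT18 averaged 199 ± 65.6 CPM in DMSO (SD, n = 2) and 58.8 ± 10.6 CPM with the isotype (SD, n = 3), a ratio of 3.38. For KRT8 the ratio of DMSO to isotype was 1.29, and for KRT80 it was 0.959. This difference was noticed in the data and was not tested.

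**Figure D3:**
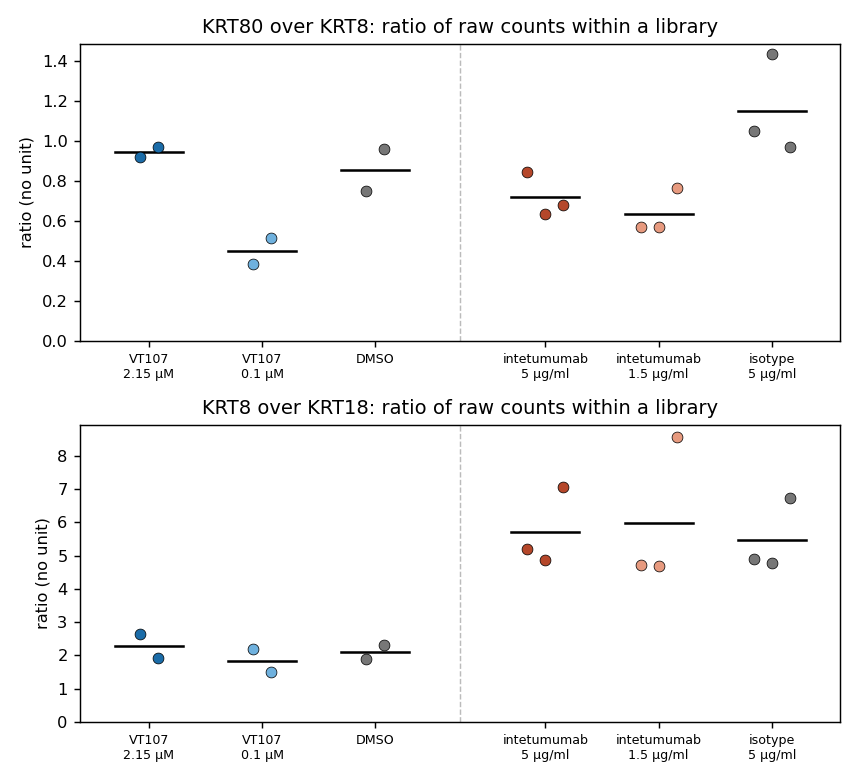
Ratio of raw counts within each labelled library, KRT80 over KRT8 above and KRT8 over KRT18 below (axes start at 0, points are libraries, lines are group means). KRT80 over KRT8 is lowest in the VT107 0.1 µM libraries (0.382 and 0.514), and KRT8 over KRT18 is at most 2.65 in the VT107 experiment and at least 4.68 in the intetumumab experiment.

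Across all 6 groups on the joint scale, KRT80 ranged from 140 ± 1.003 CPM at VT107 0.1 µM (n = 2) through 167 ± 12.1 at intetumumab 5 µg/ml (n = 3), 185 ± 12.0 at intetumumab 1.5 µg/ml (n = 3) and 217 ± 9.90 at VT107 2.15 µM (n = 2) to 342 ± 9.31 in DMSO (n = 2) and 357 ± 18.2 with the isotype (n = 3, all SD). The 2 antibody groups overlapped, and so did the 2 control groups. The other neighbours in this order did not overlap. The share of all genes that separate so on the joint scale was not computed. VT107 and antibody libraries come from separate experiments, and the antibody and isotype groups were used in the choice. The order is thus a description with no test.

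Among 6760 genes with a mean of at least 20 CPM in both experiments, likeness to KRT80 was measured as Pearson's correlation of log2(CPM + 1), centred within each experiment, over the 15 labelled libraries. The most alike gene was ENSG00000163874 (r = 0.94), followed by ENSG00000072110 (r = 0.91). These libraries include those on which KRT80 was chosen, so the values are a description. ENSG00000163874 averaged 151 ± 2.49 CPM at VT107 2.15 µM, 125 ± 3.98 at 0.1 µM and 220 ± 4.76 in DMSO (SD, n = 2 each). It averaged 37.9 ± 6.62 CPM at intetumumab 5 µg/ml, 42.4 ± 5.71 at 1.5 µg/ml and 80.9 ± 13.7 with the isotype (SD, n = 3 each). Like KRT80, it was lowest at 0.1 µM in the VT107 experiment, which its choice by likeness over these libraries favours. ENSG00000072110 averaged 614 ± 8.37 CPM at VT107 2.15 µM, 595 ± 42.5 at 0.1 µM and 1207 ± 20.7 in DMSO. In the intetumumab experiment it averaged 400 ± 32.8 CPM at 5 µg/ml, 393 ± 62.4 at 1.5 µg/ml and 716 ± 41.5 with the isotype. KRT8 (r = 0.45) and KRT18 (r = 0.30) ranked 822 and 1553 of 6759 genes in likeness to KRT80.

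The other 4 keratins were at or near the limit of detection, and none passed the filter on low counts. KRT19 was listed at 0 in all 15 labelled libraries, which over 13292467 counts allows up to 0.226 CPM, and in both unlabelled ones. A count of 0 in all 17 libraries was found for 5657 genes of the table (28.5%). KRT7 had 22 counts in all, with 16 in the libraries of the VT107 experiment (2.36 CPM, exact Poisson 95% interval 1.35 to 3.84) and 6 in the intetumumab experiment (0.919 CPM, 0.337 to 2.001). KRT7 had 1 to 4 counts in each VT107-experiment library, 4 of them in each DMSO library.

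KRT17 had 26 counts, in 7 of the 15 labelled libraries, and every count was even. In the VT107 experiment it had 4 and 0 counts at 2.15 µM, 0 and 0 at 0.1 µM, and 4 and 4 in DMSO. The 0 at 0.1 µM allows up to 1.83 CPM over that group, against 3.80 CPM in DMSO (exact Poisson 95% interval 1.64 to 7.49). Whether the groups differed was not tested, since KRT17 did not pass the filter on low counts. KRT23 had 15 counts in 3 libraries, all multiples of 3: 3 in intetumumab 5 µg/ml replicate 2, 9 in isotype replicate 2 and 3 in DMSO replicate 2. KRT8, KRT18 and KRT7 shared no common divisor. These intervals and limits cover counting error only, since reads copied from 1 molecule are not independent, and their CPM are of total counts with no TMM scaling. The intervals also take each count as a separate read, and that of KRT17, whose counts share a divisor, may be too narrow.

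The libraries without thiouridine give the background of conversions. Each experiment had 1 such library. Over all genes, 10702 counts were found in that of the VT107 experiment, and 4553 in that of the intetumumab one. These were 0.949% and 0.628% of the mean total of the labelled libraries of the same experiment. KRT8 had 3 counts in the first, 0.894% of its mean count in the labelled libraries of that experiment (336), and 0 in the second. KRT80 and KRT18 had 0 in both, which allows up to 1.16% and 1.85% of their labelled means of the first experiment and up to 1.70% and 7.63% of those of the second. With the counts of KRT80 divided by their common divisor of 2, its limits would be higher by that factor. These percentages set raw counts side by side and take the unlabelled libraries as sequenced as deeply as the labelled ones. Counts of converted reads do not show that depth.

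The cell line is labelled as liver carcinoma. KRT8 and KRT18, the pair of simple epithelia and the main keratins of hepatocytes, had counts in all 15 labelled libraries. The ductal keratins KRT19 and KRT7 were at 0 and at 0 to 4 counts. Cell identity was not tested with these values. Further liver markers, the other keratins, the proteins that anchor keratin filaments and the other intermediate filament genes were not looked up, because the table gives IDs and the gene table used here pairs 0 genes with an Ensembl ID.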

How the data were processed

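The members and gene lists were chosen with earlier results of these data known. The authors deposited raw counts per gene of reads assigned to new transcripts by SLAM DUNK, per the series design text, and the submitters' processing notes name build GRCh38. Libraries were made with a 3′-end kit that keeps strand, per the labels' protocols. Not given in the sources used here are the pipeline's version, conversion threshold, annotation and strand setting. All 17 columns were matched to samples by name. Symbols of the 7 members were given with their IDs, and their positions come from RefSeq by symbol. The labelled libraries of each experiment were fitted together with edgeR 4.0.16 in R 4.3.3: filterByExpr (minimum count 10), TMM, quasi-likelihood F-test, two-sided, Benjamini-Hochberg adjustment over all genes of the fit, called under 0.05. The fit was checked on simulated counts. Alternatives were DESeq2 1.42.0, other scalings and filters, other sets of libraries, a replicate block, and division by common divisors. Each replicate of the 2 groups compared was also left out. All members were named by rule. Neighbours of KRT80 were to be the 5 most alike, of which 2 are given by ID. Intervals of low counts are exact Poisson (95%), and a count of 0 allows 3 counts.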

Additional observations from a re-analysis of the deposited data

How the results depend on the processing

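The 18 log2 fold changes of KRT80, KRT8 and KRT18 were recomputed with the other scalings, filters, library sets and tools, which gave 252 values. Of these, 248 kept their side of the threshold or, for intetumumab against the isotype, moved by less than 1 SD between replicates. The 248 include DESeq2 values of KRT80 and KRT18 between the VT107 doses and between the antibody doses, which had no adjusted p and were taken as not called. The 4 others were calls gained: KRT80 at VT107 0.1 µM against DMSO with DESeq2 (-1.29), without the filter on low counts (-1.29) and with all labelled libraries in 1 fit (-1.28), and KRT8 at 2.15 µM against DMSO with DESeq2 (-0.84). Leaving out each replicate gave -1.30 to -1.27 for KRT80 at 0.1 µM and -1.002 to -0.62 for KRT8 at 2.15 µM. The deviations of same-numbered libraries from their group means had correlations of -0.02 to 0.07. Counting noise pulls such correlations towards 0, so they cannot decide whether the numbers pair the libraries. With the replicate number as a block KRT80 at 0.1 µM was at -1.28 (edgeR adjusted p = 0.225). The values of KRT8 and KRT18 at intetumumab 1.5 µg/ml, which were not tested, changed sign when single replicates were left out (up to 0.03 and 0.23). So did the uncalled value of KRT18 at VT107 0.1 µM (up to 0.19). Under total count scaling the median gene stood at 0.12 for VT107 0.1 µM, against 0.01 with TMM, and at 0.18 for 2.15 µM, against 0.03, with KRT80 at -1.17 and -0.50. The number of genes called ranged over the alternatives from 0 to 188 at 0.1 µM (0 in the reported fit), from 1 to 253 at 2.15 µM (11; 4 and 26 without DMSO replicate 1 and 2, 1 without either treated replicate), from 0 to 7 between the VT107 doses (0) and from 0 to 6 between the antibody doses (1). The gene most like KRT80 was the same with a floor of 50 CPM and another when either experiment was used alone. KRT19, KRT7, KRT17 and KRT23 had 0 to 9 counts per group, and changes in them were not tested. In CPM, KRT7 and KRT17 lay below DMSO without overlap at both VT107 doses, on at most 4 counts per library. KRT17 had 4 counts in replicate 1 at 2.15 µM and 4 in each DMSO library. Its lower CPM in that replicate comes from the larger library (1778876 counts, against 1001568 and 1103024 in DMSO). Of the 10083 genes tested, 19.3% lay so at 0.1 µM and 20.6% at 2.15 µM. KRT7 and KRT17 were not among these genes, so the shares are those of genes with more counts.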
